A study of Mus musculus with 8 samples.

Results

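The families described here are mouse repeat families with MaLR-type names, chosen as every family in the deposited repeat tables whose name starts with ORR1, MLT, MST, THE1, MTA, MTB, MTC, MTD or MTE. The rule uses names alone and no measured value. It found 122 of 903 family names over the 8 libraries, of which 118 were measured at 16.5 dpc, 119 at 10 dpp, 120 at 20 dpp and 116 in all 8 libraries. No name began with MST or THE1. The tables count long terminal repeats (LTRs) and internal regions apart, and 42 of the 122 names end in -int, the mark of an internal region. The prefix MLT also takes in 29 families, 9 named MLT2 and 20 named MLTR, that repeat classifications place outside MaLR, so they were kept in the counts and described apart.

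Mammalian apparent LTR retrotransposons (MaLRs) are relatives of the ERVL endogenous retroviruses whose internal region does not code for a polymerase of its own. Their LTRs carry promoter and polyadenylation signals, and MT and ORR1 LTRs are known as alternative first exons of many mouse oocyte and early embryo transcripts. MLT1 elements are old and shared among mammals, while ORR1 and MT elements belong to rodents, MTA being the youngest MT group. DNMT3C is a rodent DNA methyltransferase that methylates the promoters of young retrotransposons in fetal male germ cells.

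Whole testis RNA was sequenced from mutants homozygous for the IAP allele of Dnmt3c (IAP/IAP) and from controls heterozygous for it (IAP/WT). All animals were males of a hybrid C3H/HeJ and C57BL/6J strain background, and every control carried 1 IAP allele, so no library came from an animal without it. One mutant and one control library represent 16.5 dpc (days post coitum) and another such pair 10 dpp (days post partum), while 20 dpp has 2 libraries per genotype. The level of Dnmt3c was not analysed here and gives no check of the genotypes.

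The libraries held 57166311 to 155742823 reads on genes and 1835855 to 7436007 reads on repeat families. Each age was scaled on its own by the authors, and values are given as normalised reads, that is recovered whole reads divided by the library's factor. The 2 libraries of a genotype at 20 dpp differed by more than sampling noise. The youngest LINE-1 families (named L1Md) took 33.8% and 16.7% of family reads in the mutant libraries of 20 dpp and 7.99% and 7.22% in the controls, so shares of family reads are also given without them.

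At 20 dpp, 12 of the 120 measured families passed the test, 4 higher and 8 lower in the mutants (limma, Benjamini-Hochberg adjusted p under 0.05 over all families). Of all 888 families, 11.9% passed, 4.73% higher and 7.21% lower. The members' median log2 change was 0.09, beside 0.13 for all families, and 27 of the 120 had an unadjusted p under 0.05. In the main fit the 8 that fell were 3 MLT1 LTRs, 3 internal regions of ORR1 and MTE, and 2 MLTR families. The 4 that rose were all internal regions, of ORR1, MTB and MTE. That the rises were internal regions only depended on the scaling and the model. Outside MLT2 and MLTR, 28 LTRs and 17 internal regions rose when total gene reads were used for scaling. Mutant and control libraries did not overlap for 67 of the 120 members, against 63.0% of all families.

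The split into higher and lower depended on the scaling. Scaled by total gene reads, the median over all families moved to 0.72, 53 members passed as higher and 5 as lower, and 42.1% and 4.39% of all families did so. Scaling by the families took each library's factor from the median ratio over the families, not from their read totals. Under it none of the members passed as higher and 10 passed as lower, beside 3.15% and 7.43% of all families. The falls of MLT1G3, MLT1F2, MLT1E, MLTR18B_MM and ORR1A4-int passed under each of the 14 alternatives run, while the other 7 calls were lost under at least 1 alternative.

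**Figure D1:**
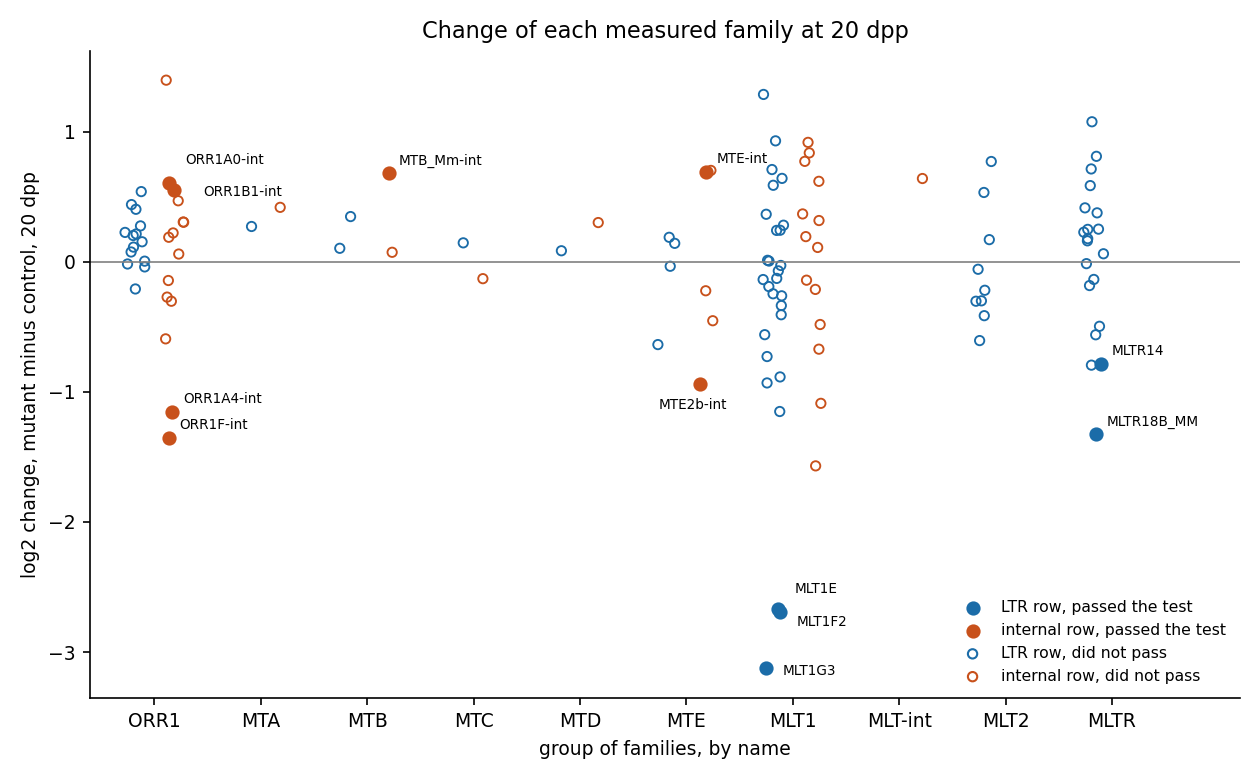
Change of each of the 120 measured families at 20 dpp, as log2 of mutant minus control, by name group, with LTR families in blue and internal regions in orange; filled points passed the test. MLT1G3, MLT1F2 and MLT1E lie near -3, and most other families lie between -1 and 1.

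Transcripts of markers of the testis cell types differed between the genotypes at 20 dpp. Of the 13 measured markers of pachytene and later spermatocytes, 13 were lower in the mutants, with a median log2 change of -7.05, and their summed normalised reads were 51878 and 38609 in mutant libraries against 1828670 and 1591764 in control libraries. All 13 measured spermatid markers were lower as well, with a median of -5.58, and 10 of 16 early meiotic markers fell while 3 rose. Of 12 Sertoli cell markers 12 were higher, with a median of 1.00, as were 7 of 12 markers of undifferentiated spermatogonia, with 1 lower. Of 8 markers of differentiating spermatogonia 6 were higher and 1 lower. Their summed normalised reads were nevertheless 46360 and 52072 in mutant libraries against 105156 and 71074 in control libraries. Among all genes 59.5% passed the test, 26.4% higher and 33.1% lower, so these counts stand beside a broad change. In whole testis RNA, fewer cells of a type and less RNA per cell cannot be told apart, and the part of cell makeup in the family changes below was not tested.

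Among the members, the MLT1 group had the largest falls, while the lowest log2 change over all families was -4.35. MLT1G3, an MLT1 LTR, had 338 and 249 normalised reads in mutant libraries and 3129.5 and 2062 in control libraries of 20 dpp. The controls were 8.73-fold higher, a log2 change of -3.13 ± 0.30 (SE, limma adjusted p = 8.6e-04), and the groups did not overlap.

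MLT1F2 had 301 and 375 normalised reads in mutant libraries and 2682 and 1762 in control libraries, a log2 change of -2.69 ± 0.29 (SE, limma adjusted p = 0.0014). MLT1E was a rarer LTR, at 56.3 and 74.9 normalised reads in mutant libraries and 438 and 401 in control libraries. Its log2 change was -2.67 ± 0.38 (SE, limma adjusted p = 0.0052). In each of these LTR families both control libraries lay above both mutant ones.

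None of the other 39 measured MLT1 families passed. The 42 MLT1 families thus had 0 rises and 3 falls, beside 4.73% and 7.21% of all families, so these counts do not set MLT1 apart. Over the 28 MLT1 LTRs the log2 changes ran from -3.13 to 1.29 with a median of -0.13, and over the 14 MLT1 internal regions from -1.57 to 0.92 with a median of 0.15. MLT1H-int gave the lowest value among the internal regions, -1.57 ± 0.46 (SE), from 73.4 and 52.2 normalised reads in mutant libraries against 231 and 149 in control libraries, and did not pass (limma adjusted p = 0.071). The most abundant MLT1 internal region, MLT1J-int, also did not pass, at -1.09 ± 0.34 (SE, limma adjusted p = 0.084).

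As a share of family reads, which does not depend on the scaling, MLT1 families took 0.281% and 0.332% in mutant libraries and 0.642% and 0.60% in control libraries of 20 dpp. At 10 dpp their share was 0.224% in the mutant and 0.261% in the control, with 95% Wilson intervals of 0.219% to 0.230% and 0.254% to 0.267%. At 16.5 dpc it was 0.225% and 0.224%. With the L1Md families left out of the family reads, the 20 dpp shares were 0.425% and 0.399% in mutant libraries and 0.698% and 0.646% in control libraries, so the genotypes stayed apart. As a share of all counted reads, genes included, MLT1 took 0.0155% and 0.0170% in mutant libraries and 0.0161% and 0.0140% in control libraries of 20 dpp, and there the genotypes overlapped. At 10 dpp that share was 0.0082% in the mutant and 0.0086% in the control.

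ORR1 families, in their lettered groups A to G, had 2 rises and 2 falls among 29, all 4 in internal regions. Of all families 4.73% rose and 7.21% fell, so these counts do not set ORR1 apart. ORR1A4-int had the highest mean level of the ORR1 internal regions over the 4 libraries of 20 dpp, although ORR1B1-int was above it in the mutants. It had 8174 and 8724 normalised reads in mutant libraries and 19818 and 17789 in control libraries. The log2 change was -1.15 ± 0.12 (SE, limma adjusted p = 0.0014), a level 2.22-fold higher in the controls, with no overlap.

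ORR1F-int had 266 and 469.9 normalised reads in mutant libraries and 1013.5 and 805 in control libraries. Its log2 change was -1.35 ± 0.35 (SE, limma adjusted p = 0.048). The mutant libraries differed more from each other than the controls did, and without mutant replicate 1 or either control library the adjusted p rose to between 0.10 and 0.19.

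ORR1A0-int went the other way, with 7062 and 7988 normalised reads in mutant libraries and 5462 and 4459 in control libraries, a log2 change of 0.61 ± 0.15 (SE, limma adjusted p = 0.047). ORR1B1-int had 10909 and 12863 in mutant libraries and 8537 and 7620.3 in control libraries, a log2 change of 0.55 ± 0.14 (SE, limma adjusted p = 0.045). Both rises were under 2-fold and the groups did not overlap, but neither passed without mutant replicate 2, without control replicate 1, without control replicate 2 or under scaling by the families.

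None of the 14 ORR1 LTRs passed, and their log2 changes ran from -0.21 to 0.54. ORR1D1, the most abundant of them, had 11917 and 13924 normalised reads in mutant libraries and 11880 and 10388 in control libraries, a log2 change of 0.21 ± 0.14 (SE, limma adjusted p = 0.34). ORR1G-int showed the widest spread between mutant libraries, at 35.6 and 378 normalised reads beside 25.9 and 73.7 in the controls, and its log2 change of 1.40 ± 1.07 (SE) did not pass.

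The MT groups, MTA to MTE, hold the most abundant internal region among the members, MTA_Mm-int. It had 31323 and 31205 normalised reads in mutant libraries and 23906 and 22902.5 in control libraries of 20 dpp. The groups did not overlap, but the log2 change of 0.42 ± 0.11 (SE) missed the threshold (limma adjusted p = 0.057). Its LTR, MTA_Mm, changed by 0.27 ± 0.13 (SE, limma adjusted p = 0.21).

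Among the 19 MT families 2 rose and 1 fell, beside 4.73% and 7.21% of all families, and all 3 were internal regions. MTE-int had 4515 and 5034 normalised reads in mutant libraries and 3023 and 2881 in control libraries, a log2 change of 0.69 ± 0.15 (SE, limma adjusted p = 0.025). MTB_Mm-int had 2880.5 and 2813 in mutant libraries and 1875 and 1673 in control libraries, a log2 change of 0.68 ± 0.17 (SE, limma adjusted p = 0.044). With the replicate number as a block MTB_Mm-int no longer passed (limma adjusted p = 0.052), and it was also lost when any 1 library was left out. MTE-int was lost without mutant replicate 2 or either control.

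MTE2b-int fell, from 3062 and 2221 normalised reads in the controls to 1286 and 1432 in the mutants. Its log2 change was -0.94 ± 0.21 (SE, limma adjusted p = 0.033), and without control replicate 1 it did not pass (adjusted p = 0.17). The most abundant MTE internal region, MTEa-int, did not pass at -0.45 ± 0.13 (SE, limma adjusted p = 0.071).

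The abundant LTRs of the MT groups showed log2 changes of 0.10 for MTB, 0.15 for MTC, 0.08 for MTD and 0.19 for MTE2a, and none passed. The internal regions MTB-int, MTC-int and MTD-int were at 0.07, -0.13 and 0.30, again without passing, and MTC-int turned to 0.47 and passed when total gene reads were used for scaling. MTD, at 25982 and 31816 normalised reads in mutant libraries and 29861 and 24627 in control libraries, had overlapping groups.

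The 29 families outside MaLR that share the MLT prefix had 2 falls, beside 7.21% of all families. MLTR18B_MM had 1754 and 1587 normalised reads in mutant libraries and 4288 and 4074 in control libraries, a log2 change of -1.32 ± 0.16 (SE, limma adjusted p = 0.0024). MLTR14, the most abundant LTR under the MLT prefix, had 2697 and 3084.5 in mutant libraries and 5268 and 4673 in control libraries, a log2 change of -0.78 ± 0.16 (SE, limma adjusted p = 0.020). MLTR14 was lost without either control library. None of the 9 MLT2 families, which are ERVL LTRs, passed, and their median was -0.22. For comparison, none of the 11 families named MERVL, MT2 or ERVL passed (median 0.30), whereas 4 of 6 L1Md families rose. Of 25 families named IAP, 7 rose and 3 fell (median 0.39), and of 122 other LINE-1 families 4 rose and 7 fell. Over all families 4.73% rose and 7.21% fell.

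For 5 of the names with a fall, only the LTR or only the internal region passed. MLT1G3 changed by -3.13 while MLT1G3-int changed by 0.37, from 174 and 182 normalised reads in mutant libraries against 108 and 175 in control libraries. MLT1F2 changed by -2.69 and MLT1F2-int by 0.77. The reverse held in ORR1A4, with -1.15 for the internal region and 0.15 for the LTR, in ORR1F, with -1.35 and -0.04, and in MTE2b, with -0.94 and 0.14. The rises were nearer to those of their LTRs in ORR1A0, with 0.61 for the internal region and 0.44 for the LTR, than in ORR1B1, with 0.55 and -0.02. The difference between the paired changes was not tested. Over all 36 pairs of one name the internal region lay below its LTR in 16, and the median difference of log2 changes was 0.06.

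Together the members accounted for 6.52% and 7.75% of family reads in mutant libraries of 20 dpp and 10.6% and 10.3% in the controls. The difference of -3.29 percentage points is larger than the spread in either genotype, but 2 libraries against 2 cannot give an exact permutation p below 0.33, which it reached (two-sided). Without the L1Md families among the family reads the difference was -1.71 points. As a share of all counted reads, genes included, it turned round, at 0.360% and 0.397% in mutant libraries and 0.266% and 0.241% in control libraries. At 10 dpp the members' share of family reads was 9.38% in the mutant and 10.7% in the control, and at 16.5 dpc 10.6% and 10.7%.

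No member passed a test of a change shared by the 3 ages (116 tested, age as a block). None of the 785 families measured in all 8 libraries passed either (0.0%), with 42 of them and 3 members at an unadjusted p under 0.05. Without the trend in the limma fit no member passed, nor did any when the families were fitted apart from the genes. The 3 members at an unadjusted p under 0.05 were the MLT1 LTRs MLT1F2, MLT1E1 and MLT1E2, with log2 changes over the ages of -1.45, -0.81 and -0.62.

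Before 20 dpp the mutant and control libraries were close, as single libraries with no replicate check. A family counted as listed if its ratio was 2-fold or more, the 95% interval left out 1 and the pair of libraries summed to 50 reads or more. The interval covers counting error only. At 10 dpp none of the 119 members was listed, beside 1.82% of all families. At 16.5 dpc none of 118 was listed, beside 0.496%. The same rule set between the replicates of 20 dpp listed 3 members in the mutants and 6 in the controls, with 4.95% and 5.52% of all families.

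At 10 dpp the families that fell at 20 dpp had ratios of mutant over control on either side of 1. MLT1G3 had 79 and 95 reads, a ratio of 0.865 (95% exact interval 0.634 to 1.18). MLT1E had 29 and 18 reads, with a ratio of 1.68 (0.900 to 3.20). ORR1A4-int had 8743 and 8673 reads and a ratio of 1.05 (1.02 to 1.08), and MLTR18B_MM 0.965 (0.890 to 1.05). The ratio of MLT1F2 was 0.719 (0.555 to 0.927) and that of MLTR14 0.897 (0.827 to 0.974), so for these the interval lay below 1, as it lay above 1 for ORR1A4-int.

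Among members with at least 50 reads on average, the highest ratios at 10 dpp were 1.68 for MLT1J-int (1.11 to 2.57), 1.57 for MLTR31E_MM and 1.51 for ORR1G-int. The lowest was that of MLT1F2, then 0.736 for MLT2D and 0.739 for MLT1F1. MLT1F2 was thus the only family that fell at 20 dpp and was also among the 3 lowest at 10 dpp. At 16.5 dpc the highest were 1.53 for MLT2D, 1.32 for MLT1G3 and 1.30 for MLT1G3-int, and the lowest 0.656 for MLT1E1A, 0.692 for MLTR31A_MM and 0.747 for MLT1J.

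The change at 20 dpp was then set against that at 10 dpp in 1 model, whose spread comes from the 20 dpp pairs and is assumed for the single libraries. ORR1A4-int passed, at -1.22 ± 0.21 (SE, limma adjusted p = 0.038), as the only one of 116 members, beside 1.78% of all families. It did not pass without control replicate 1 or control replicate 2 (adjusted p of 0.16 and 0.10), under scaling by the families or by total gene reads, or without the trend. MLT1G3 had a larger difference that did not pass, -2.92 (limma adjusted p = 0.078), as did MLT1E at -3.39 (0.098) and MLTR18B_MM at -1.27 (0.082). Against 16.5 dpc, MLT1G3 passed at -3.52 ± 0.64 (SE) and ORR1A4-int at -1.17 ± 0.21 (SE), both with a limma adjusted p of 0.041, beside 2.04% of all families (0.51% higher and 1.53% lower), and both were lost without either control library. The 10 dpp and 16.5 dpc comparisons share the libraries of 20 dpp.

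**Figure D2:**
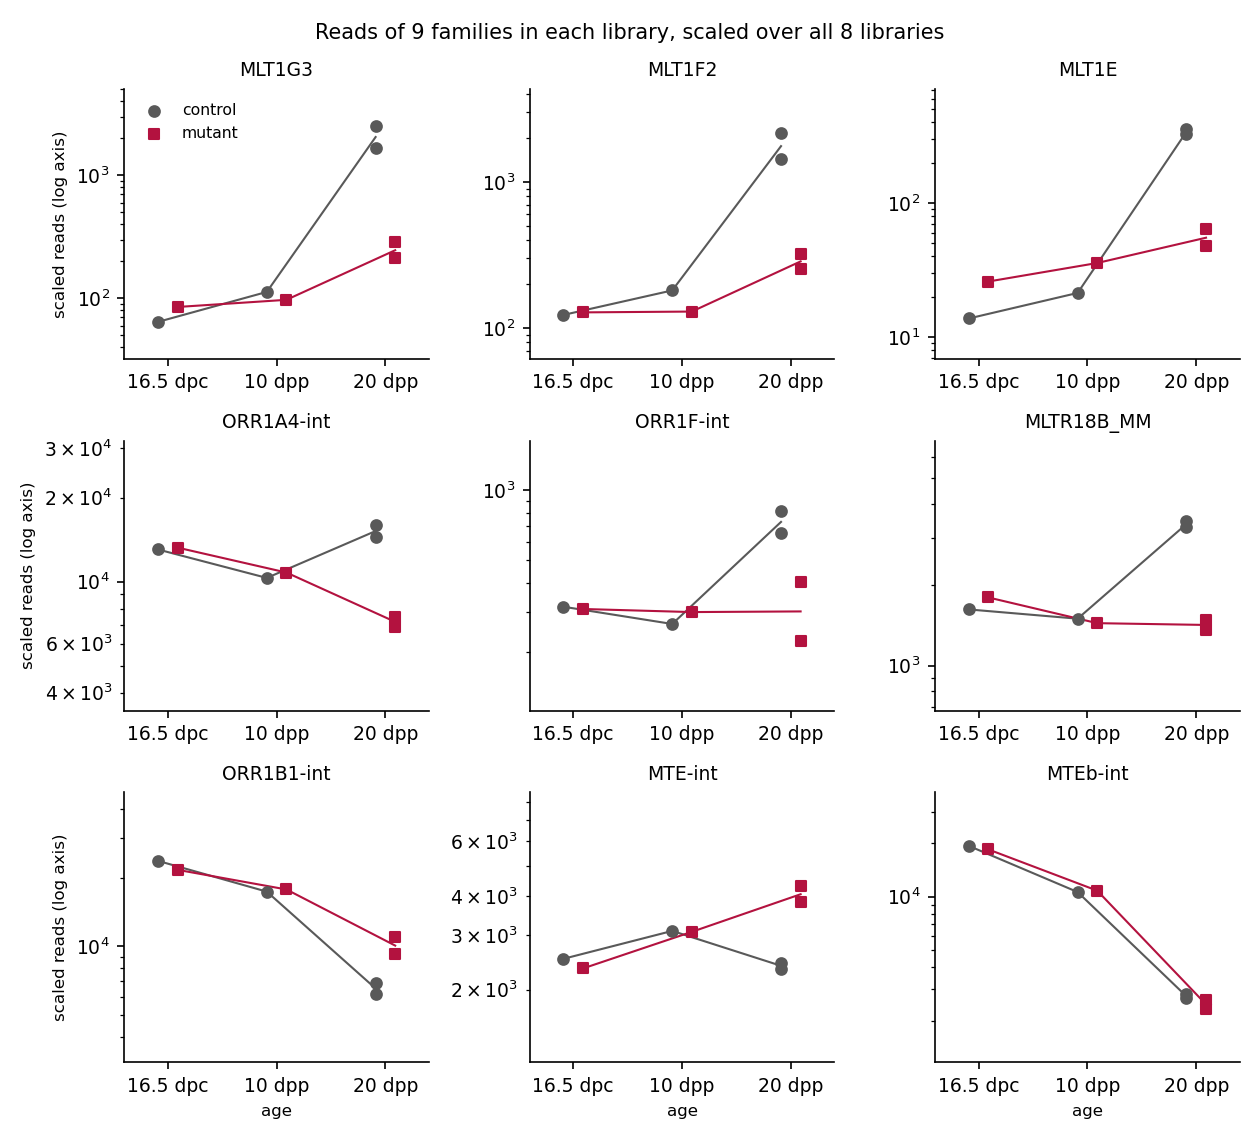
Reads of 9 families in each library, scaled over all 8 libraries, on log axes by age; grey circles are controls, red squares mutants, each point 1 library and each line the geometric mean. MLT1G3, MLT1F2 and MLT1E rise at 20 dpp chiefly in controls, and ORR1A4-int separates in opposite directions.

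To follow the families with age, recovered reads were scaled over all 8 libraries together. Age and preparation of the libraries cannot be told apart. From 10 to 20 dpp in controls, 21 of 116 members were higher and 8 lower, beside 21.5% and 5.35% of all families. Scaling by the families gave 9 and 16, and total gene reads 10 and 16, with 13.6% and 10.6%, and 13.2% and 13.0%, of all families. The median of all families was 0.40 in the first scaling, -0.01 in the second and -0.07 in the third. The second scaling sets that median close to 0 by construction.

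MLT1 LTRs led the rises in controls. MLT1G3 stood at 64.4 scaled reads in the control of 16.5 dpc, 113 at 10 dpp, and 2523 and 1670.1 at 20 dpp. Its log2 change from 10 to 20 dpp was 4.17 ± 0.45 (SE, limma adjusted p = 6.1e-04). MLT1E followed at 3.92, MLT1F2 at 3.27 and MLT1H-int at 3.20, and all 4 rises passed under each scaling.

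In the mutants MLT1G3 stood at 85.2 scaled reads at 16.5 dpc, 97.4 at 10 dpp, and 285 and 213 at 20 dpp. The log2 change from 10 to 20 dpp was 1.33 ± 0.44 (SE) and did not pass (limma adjusted p = 0.077). MLT1E changed by 0.61 and MLT1F2 by 1.13 in the mutants, without passing. For pachytene markers the median log2 change was 7.70 in the controls and 1.15 in the mutants over the same interval, and their part in the MLT1 values was not tested.

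ORR1A4-int passed in opposite directions. Its scaled reads were 10308 in the control of 10 dpp and 15980 and 14407 at 20 dpp, a log2 change of 0.56 ± 0.15 (SE, limma adjusted p = 0.029). In the mutants they went from 10777 to 6901 and 7461, a change of -0.59 ± 0.15 (SE, limma adjusted p = 0.033). The rise in controls was 0.15 under scaling by the families and 0.08 with total gene reads and passed in neither. It was also lost without the trend or without either control library.

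The falls with age were led by internal regions in both genotypes. MTEb-int went from 19279 scaled reads in the control of 16.5 dpc to 10598 at 10 dpp and 2809 and 2679 at 20 dpp, and in the mutants from 18411 to 10791 and then 2619 and 2331. From 10 to 20 dpp its log2 change was -1.95 ± 0.16 in controls and -2.13 ± 0.16 in mutants (SE, limma adjusted p = 2.7e-04 and 1.1e-04). MTEb-int thus followed nearly the same course in both. ORR1A0-int changed by -1.57 in controls and -0.98 in mutants, ORR1B1-int by -1.42 and -0.82, and MTE2a-int by -1.23 and -0.48, the last not passing in mutants. ORR1A0-int and ORR1B1-int, higher in the mutants at 20 dpp, were thus families whose reads fell with age in both genotypes.

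In the mutants 20 members were higher and 5 lower from 10 to 20 dpp, beside 16.6% and 2.17% of all families. Scaling by the families left 0 higher and 10 lower, beside 6.75% and 6.24% of all families. The lists of the genotypes shared 9 rises, 42.9% of the controls' list and 45.0% of the mutants', and 4 falls, 50% and 80%. The 80% is 4 of 5 families. The overlap over all families is not given here, so these shares do not set the members apart. The shared falls were MTA_Mm-int, MTEb-int, ORR1A0-int and ORR1B1-int, all internal regions, and the shared rises were all LTRs, among them MLT1A0, MLT1F1, ORR1A4 and ORR1E.

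Within MaLR proper, LTRs and internal regions went apart with age. In controls 13 of 50 LTRs rose and none fell, with a median log2 change of 0.72, whereas 4 of 37 internal regions rose and 7 fell, with a median of -0.36. In mutants 19 of 50 LTRs rose and none fell, with a median of 0.90, and none of 37 internal regions rose while 5 fell, with a median of 0.02. Of all 785 families, 21.5% rose and 5.35% fell in controls, with a median of 0.40. In mutants 16.6% of them rose and 2.17% fell, with a median of 0.53. Scaling by the families took the LTR rises to 6 in controls and 0 in mutants and the internal falls to 14 and 10. Under it 13.6% of all families rose and 10.6% fell in controls, and 6.75% and 6.24% in mutants. Without mutant replicate 2 the LTR rises in mutants were 7, and without control replicate 1 those in controls were 7. The internal falls in mutants were 3 without control replicate 1 or without control replicate 2, and the internal rises in controls were 2 without control replicate 1. With no trend in the fit, 5 internal regions rose and 2 fell in mutants, and 2 rose and 6 fell in controls, while no LTR fell in either. In 33 pairs of one name measured in all libraries, the internal region lay below its LTR in 28 in controls and 31 in mutants, with median differences of -0.94 and -0.88, and a pair's difference depends on the scaling only through the pseudocount of 1.

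**Figure D3:**
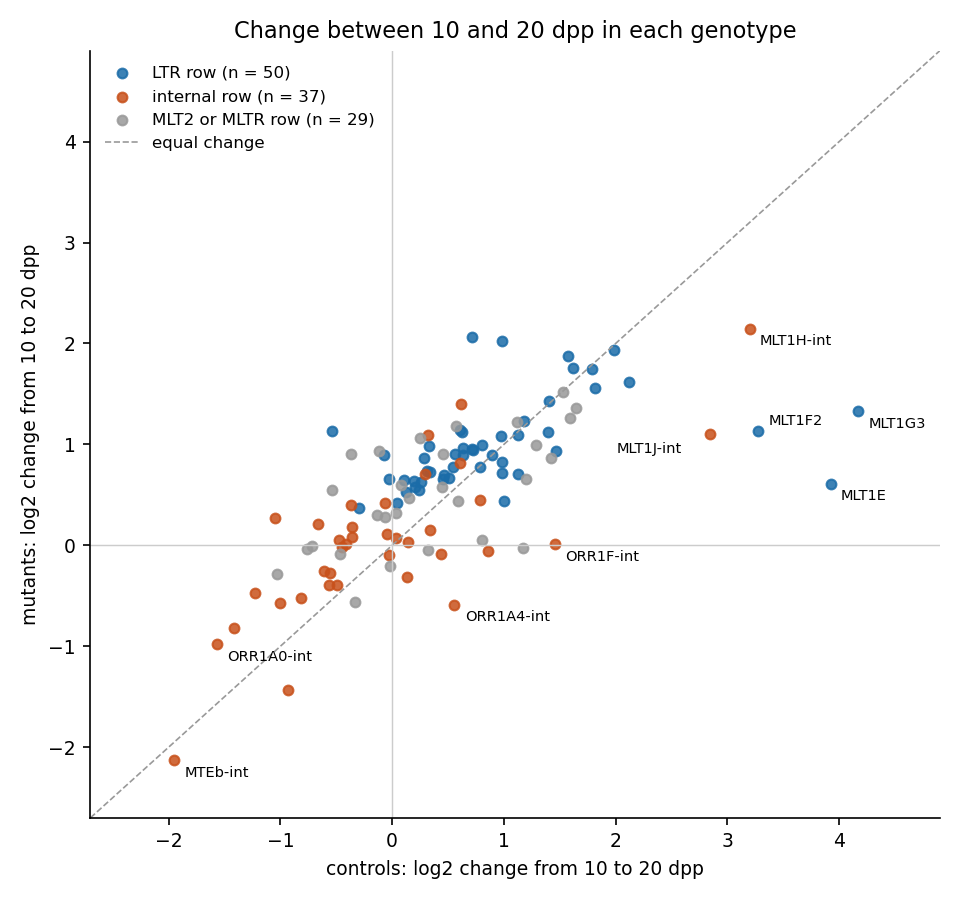
Change of each of 116 families from 10 to 20 dpp in controls (horizontal) and mutants (vertical), in log2 units of reads scaled over all 8 libraries; the dashed line marks equal change. LTR families lie mostly above 0 on both axes, internal regions lower, and MLT1G3, MLT1E and MLT1F2 lie far to the right of the line.

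The share of MaLR reads on internal regions showed the same without any scaling. It was 66.1% in the mutant and 64.9% in the control of 16.5 dpc, with 95% Wilson intervals of 65.9% to 66.3% and 64.7% to 65.1%. At 10 dpp it was 61.1% and 58.5%. At 20 dpp it was 42.3% and 40.6% in mutant libraries and 40.8% and 42.3% in control libraries, so the genotypes overlapped at an age when single families differed up to 8.73-fold.

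MTE families had the steepest course, from 69.5% and 68.6% of their reads on internal regions at 16.5 dpc to 60.1% and 57.1% at 10 dpp. At 20 dpp the MTE share was 37.0% and 34.2% in mutant libraries and 34.8% and 36.7% in control libraries. MTA kept the highest share, 88.0% and 86.2% at 16.5 dpc and at 20 dpp 68.6% and 67.0% in mutant libraries and 64.4% and 66.6% in control libraries. ORR1 went from 67.3% and 66.3% to 44.8% and 43.8% in mutant libraries and 47.3% and 47.9% in control libraries of 20 dpp. MLT1, whose reads lie mostly on LTRs, went from 14.3% and 13.8% to 8.76% and 8.67% in mutant libraries and 6.97% and 7.57% in control libraries. At 20 dpp the genotypes did not overlap in MTA, MTB, MTD and MLT1, where the mutants had the higher share, or in ORR1 and MTC, where they had the lower one, and overlapped in MTE.

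**Figure D4:**
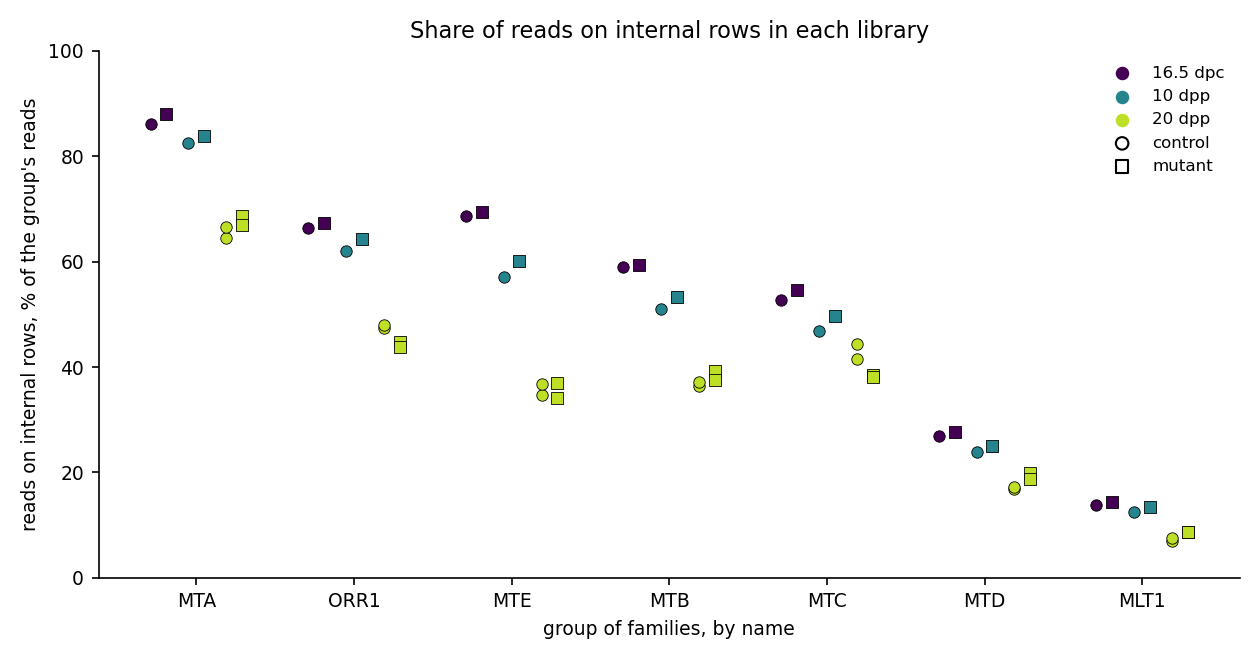
Share of reads on internal regions in each of the 8 libraries, in percent of the reads of the name group; colours are ages, circles controls and squares mutants, each point 1 library. The share is lowest at 20 dpp in each group, and mutants and controls of one age lie close together.

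Genes known to silence endogenous retroviruses were read from the same fit at 20 dpp. Of 31 listed genes, all measured, 9 were higher and 14 lower in the mutants, beside 26.4% and 33.1% of all genes, and their median log2 change was -0.04. With total gene reads for scaling the counts were 16 and 7. That scaling also moved the median log2 change of all families from 0.13 to 0.72. The share of all genes under it is not given here, so the shift is not a result about the listed genes. Chaf1a, a subunit of the chromatin assembly factor CAF-1, had 5215 and 6346 normalised reads in mutant libraries and 34617 and 27373 in control libraries, a log2 change of -2.42 ± 0.16 (SE, limma adjusted p = 1.8e-05).

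Trim28, the corepressor that KRAB zinc finger proteins recruit to retroviral LTRs, fell by 1.30 ± 0.12 on the log2 scale (SE, limma adjusted p = 7.9e-05), and Mphosph8, a subunit of the HUSH complex, by 1.09. Setdb1, the histone H3 lysine methyltransferase that acts with Trim28, was at -0.04 ± 0.11 (SE, limma adjusted p = 0.75) and turned to 0.55 with total gene reads. Higher in the mutants were the histone methyltransferases Suv39h1 at 1.42 and Ehmt1 at 1.15, and the chromatin remodeller Atrx at 1.29. Their part in the family values was not tested.

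Oocyte markers were read because many oocyte transcripts start in MT and ORR1 LTRs. Of 8 such markers 5 were not listed at 20 dpp and 2 of the 3 measured were lower in the mutants. The 3 measured summed to 354 and 226 normalised reads in mutant libraries and 1410 and 1335 in control libraries.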

How the data were processed

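Whole testis RNA of 8 libraries was analysed from the gene and repeat family tables the authors deposited, whose values are on a log2 scale. A value is the log2 of 1 plus a read count over the factor of its library. The counts came out whole within 0.01 reads for 100% of values. The factors matched median-of-ratios factors of each age. The submitters' processing notes name mm10, TopHat2 2.0.6, HTSeq 0.6.1 and Bowtie 1.0.0, with no role given. How reads matching several copies were counted is not given in the sources used here. Families of similar sequence can therefore share reads. The lowest count was 5 or 6, and families close to 0 reads in a library are missing from the tables of that age. Repeats with no assigned name (up to 0.0109% of family reads) were dropped.

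Tests used limma 3.58.1 in R 4.3.3 (eBayes with trend) on log2(value + 1), which understates the changes of low families. Genes and families were fitted together, with Benjamini-Hochberg adjustment over families and genes apart, at 0.05. At 20 dpp the fit had 2 residual and 5.21 prior degrees of freedom. Whether replicate libraries came from different animals is not stated, and the p-values then measure the spread between libraries, which may be technical. Ratios of single libraries have exact conditional binomial 95% intervals. On data simulated for 20 dpp over 18082 features, 78% of 2-fold and 99% of 4-fold changes were recovered. For the 20 against 10 dpp difference, over 17067 features, 17% and 87% were. The simulation gave all features the same relative spread and changed 100 features per fold, drawn at random from genes and families. It adjusted over genes and families together. The rates therefore describe that setting and do not give the power for the families named here.

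Named families were those called at 20 dpp or differing between ages, the most abundant LTR and internal region of each prefix, the 3 highest and lowest ratios at each single-library age, and the 4 largest rises and falls in controls. MLT1F2-int, MLT1E1, MLT1E2, ORR1A0, ORR1A4, ORR1B1, ORR1F, MTE2b and the families named as shared between genotypes or for pairs were added after their values were seen. Members and lists were chosen with earlier results of these data known. The replicate numbers did not pair the libraries. Alternatives covered scaling, pseudocount (0.5 and 4), a filter at 50 reads, the model, the replicate block and leaving out each library of 20 dpp.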

Additional observations from a re-analysis of the deposited data

Results flagged for a closer look

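In the main fit the mutant minus control change of ORR1A4-int differed between ages. The change at 20 dpp differed from that at 10 dpp by -1.22 ± 0.21 (SE, limma adjusted p = 0.038) and from that at 16.5 dpc by -1.17 ± 0.21 (SE, limma adjusted p = 0.041) on the log2 scale. The change of MLT1G3 at 20 dpp differed from that at 16.5 dpc by -3.52 ± 0.64 (SE, limma adjusted p = 0.041). The younger ages have 1 library per genotype, assumed to vary like those of 20 dpp. Both comparisons share the libraries of 20 dpp, and 1.78% of all families passed against 10 dpp and 2.04% against 16.5 dpc. None of these calls held when either control library of 20 dpp was left out. The call against 10 dpp was also lost under scaling by the families, with total gene reads and without the trend.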

How the results depend on the processing

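Precision is limited by 2 libraries per genotype at 20 dpp and 1 at the other ages. At 20 dpp the counts of members higher and lower, 4 and 8, became 0 and 10 with scaling by the families, 53 and 5 with total gene reads, 10 and 16 when the families were fitted without the genes, and 1 and 7 with no trend. Leaving out 1 library at a time gave 0 to 4 higher and 5 to 9 lower. The lower ends came without mutant replicate 2 or either control for the higher count, and without control replicate 1 for the lower count. The median log2 change became 0.69 with total gene reads. Outside MLT2 and MLTR, 0 LTRs and 4 internal regions rose in the main fit and with either other pseudocount. The counts were 28 and 17 with total gene reads, 3 and 6 when fitted without the genes, and 1 and 0 with no trend.

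The count of members whose change differed between 20 and 10 dpp, 1, became 10 with total gene reads, 7 when fitted without the genes and 0 with no trend, and ran from 0 to 2 with 1 library left out. In controls the counts higher and lower with age, 21 and 8, became 9 and 16 with scaling by the families and 10 and 16 with total gene reads, and ran from 11 to 23 and from 5 to 10 with 1 library left out (11 without control replicate 1, 5 without control replicate 2). The difference in the members' share became 0.125 points as a share of all counted reads. At a 1.5-fold limit 5 members were listed at 10 dpp and 2 at 16.5 dpc. The shares of all families at that limit are not given here. Shares are also not given for the fit without the genes, the fit with no trend or left-out libraries. The same holds for the 20 against 10 dpp difference under other settings. Such counts show how the calls shift and are not a result about the members. With total gene reads MTC-int turned to 0.47 and Setdb1 to 0.55, and 16 silencing genes were higher and 7 lower, with no share of all genes to set beside them.

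The correlation of same-numbered libraries' deviations was 0.02, with 2 pairs only, and with the replicate block 3 members were higher and 8 lower. The cause of these shifts was not tested.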
